A study of Mus musculus with 9 samples.

Results

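Adenosine and P2Y nucleotide receptors are G protein-coupled receptors of the cell surface that are activated by adenosine and by nucleotides such as ATP, ADP, UTP, UDP and UDP-glucose. The genes described here are the 4 adenosine receptor genes Adora1, Adora2a, Adora2b and Adora3 and the P2Y receptor genes P2ry1, P2ry2, P2ry6, P2ry12, P2ry13 and P2ry14. These 10 genes were taken by name, whatever their level, from the 55536 genes of each expression table. The set was chosen with earlier results of these data known. All 10 were matched to a gene identifier of the GENCODE M21 annotation of the mouse genome build GRCm38.

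RNA was measured in 9 libraries from pancreatic islet cells of C57B/L6 mice aged 12 weeks, with 3 libraries of each of 3 sorted subsets. The beta-enriched subset was CD24 low and CD71 positive, the alpha-enriched subset was CD24 low and CD71 negative, and the delta-enriched subset was CD24 high. Hand-picked islets had been kept in culture overnight before they were dispersed and sorted, and no subset had received a treatment of its own. The labels do not say whether replicate libraries came from separate animals, so p-values measure only the spread between these libraries, which may be technical.

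ATP is stored in insulin granules and leaves the beta cell together with insulin, so it can act on the cell that released it and on its neighbours. Enzymes on the cell surface cut ATP stepwise to ADP, AMP and adenosine, which moves the signal from P2Y and P2X receptors to adenosine receptors. Gq-coupled receptors (P2ry1, P2ry2 and P2ry6) raise intracellular calcium, Gs-coupled receptors (Adora2a and Adora2b) raise cAMP, and Gi-coupled receptors (Adora1, Adora3, P2ry12, P2ry13 and P2ry14) lower cAMP.

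Of the 9 genes that could be tested, 6 were higher in beta- than in alpha-enriched libraries: Adora1, Adora2b, Adora3, P2ry1, P2ry6 and P2ry12. Adora2a was the only tested gene of the 10 that passed the test as lower in beta-enriched libraries, and it did so against either other subset. P2ry14 was the receptor gene with the highest mean level in alpha-enriched libraries, and P2ry1 in delta-enriched libraries, when levels were compared per transcript length. P2ry2 had 0 to 11 counts per library and was not tested.

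The sequences around 3 transcription starts are shown because these genes were all higher in beta- than in alpha-enriched libraries and yet have windows of different base composition. They were taken from RefSeq on build GRCm38.p6, where 8 of the 10 genes matched with 13 windows of 250 bases before and 50 bases after an annotated start. Adora2b (chr11:62248734-62249033, plus strand) and P2ry1 (chr3:61002535-61002834, plus strand) are GC-rich, with 70.0% and 70.7% G or C and with 27 and 25 CpG dinucleotides. P2ry12 (chr3:59262936-59263235, minus strand) has 42.3% G or C and 4 CpG dinucleotides, and its window lies outside the GENCODE gene, which ends at 59262871. The medians over 32851 windows of the same length were 52.7% G or C and 7 CpG dinucleotides. Each window is written 5′ to 3′ along the gene, and capitals mark matches on either strand to the searched motifs.
Adora2b: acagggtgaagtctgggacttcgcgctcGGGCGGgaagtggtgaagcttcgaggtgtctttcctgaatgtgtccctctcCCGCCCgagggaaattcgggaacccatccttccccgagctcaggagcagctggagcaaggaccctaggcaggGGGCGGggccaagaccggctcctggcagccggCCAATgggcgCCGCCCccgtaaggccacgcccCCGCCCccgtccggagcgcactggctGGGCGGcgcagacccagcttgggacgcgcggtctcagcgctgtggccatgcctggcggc
P2ry1: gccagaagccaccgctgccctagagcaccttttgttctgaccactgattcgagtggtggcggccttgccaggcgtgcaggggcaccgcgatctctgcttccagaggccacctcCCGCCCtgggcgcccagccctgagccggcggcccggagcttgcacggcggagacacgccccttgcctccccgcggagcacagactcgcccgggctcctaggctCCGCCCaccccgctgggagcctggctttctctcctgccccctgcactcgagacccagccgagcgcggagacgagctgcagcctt
P2ry12: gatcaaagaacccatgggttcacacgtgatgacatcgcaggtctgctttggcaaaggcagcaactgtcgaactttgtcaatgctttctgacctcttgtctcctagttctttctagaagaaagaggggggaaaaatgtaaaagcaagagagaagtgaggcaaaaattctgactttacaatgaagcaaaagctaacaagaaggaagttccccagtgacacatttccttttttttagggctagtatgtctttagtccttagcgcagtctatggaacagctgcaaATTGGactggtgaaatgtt
The GC box core (GGGCGG) matched 6 times in the Adora2b window and 2 times in the P2ry1 window, and 35.7% of all windows hold at least 1 match. A CCAAT box (CCAAT) matched once each in the Adora2b and P2ry12 windows, and 37.4% of all windows hold it. The cAMP response element core (TGACGT, in 7.51% of all windows), the TATA box core (TATAAA, 13.6%), the E-box CAGATG (17.2%), the homeodomain core (TAATTA, 5.29%), the forkhead core (TGTTTAC, 3.65%) and the Maf core (TGCTGA, 19.5%) had no match in these 3 windows. A match describes letters only.

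Sequencing depth was 5663141 to 9529920 expected counts per library. The sort separated the hormone genes: Ins2 averaged 25950 CPM (counts scaled by library size and TMM factor) in beta-enriched, 2325 in alpha-enriched and 191.3 in delta-enriched libraries. Gcg averaged 393 CPM in beta-enriched, 89390 in alpha-enriched and 4380 in delta-enriched libraries, and Sst averaged 1.57, 37.78 and 17220 CPM in that order. The pancreatic polypeptide gene Ppy averaged 41.5 CPM in beta-enriched, 2014 in alpha-enriched and 1709 in delta-enriched libraries. A ribosomal RNA locus took 34.42% of the counts of beta replicate 2, against 3.15% to 5.37% in the other libraries. Acinar markers summed to 17085 counts in delta replicate 3, the highest of the delta-enriched libraries, where the lowest sum was 608. In bulk libraries such as these, fewer cells of a type and less RNA per cell cannot be told apart. Calls are from edgeR's quasi-likelihood fit of all 9 libraries over 15896 genes, with adjusted p under 0.05 (Benjamini-Hochberg, over all genes) as the threshold. Of all tested genes, 26.6% were called between beta- and alpha-enriched libraries (14.8% higher and 11.9% lower in beta), against 7 of the 9 tested receptor genes (6 higher and 1 lower). Between beta- and delta-enriched libraries 30.6% of all tested genes were called (15.4% higher and 15.3% lower in beta), against 6 of 9 receptor genes (5 higher and 1 lower). Between alpha- and delta-enriched libraries 24.3% of all tested genes were called (11% higher and 13.3% lower in alpha), against 5 of 9 receptor genes (2 higher and 3 lower). The subsets' CPM ranges did not overlap for 45.5% of all genes between beta and alpha, 42.6% between beta and delta and 36.1% between alpha and delta, against 7, 8 and 4 of the 9 receptor genes in the same order. A gene high in a single subset passes the filter on low counts through that subset, so these counts over 9 genes are a description.

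**Figure D1:**
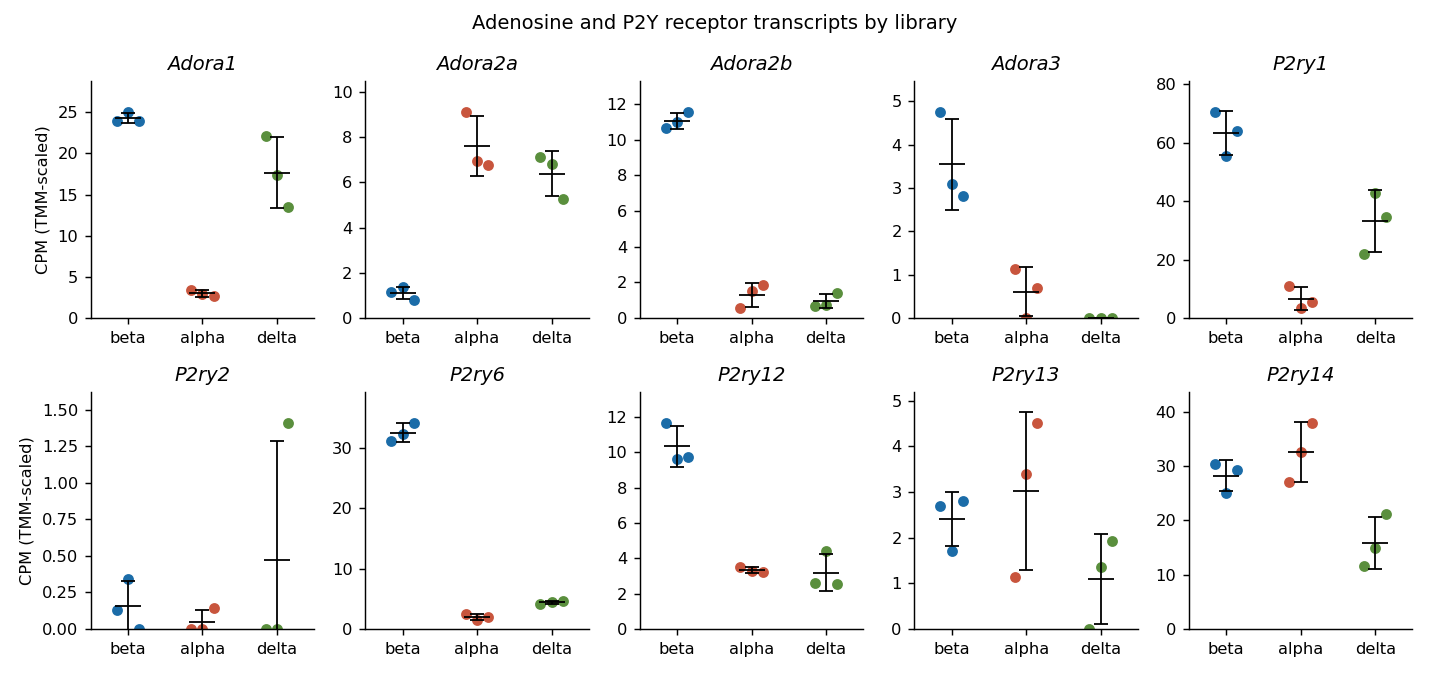
CPM of each receptor gene (y axis, from 0, a scale of its own in each panel) in the beta-, alpha- and delta-enriched subsets (x axis). Points are the 3 libraries of a subset and bars are the mean ± SD. Adora2a is the only panel with all 3 beta points under all points of the other subsets, and Adora3 lies at 0 in delta.

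Adora1 (ENSMUSG00000042429, chr1:134199223-134235431, minus strand) encodes the A1 receptor, the high-affinity Gi-coupled adenosine receptor. It had 23.9, 25.0 and 23.9 CPM in beta replicates 1 to 3, 3.42, 2.90 and 2.68 CPM in the alpha replicates, and 22.1, 17.4 and 13.5 CPM in the delta replicates. The alpha libraries were the low group, and no ranges overlapped, although the highest delta library stood close under the lowest beta library. Adora1 was higher in beta than in alpha by 3.0 on the log2 scale (SE 0.25, adjusted p = 5.1e-08) and lower in alpha than in delta, with a log2 fold change of -2.55 (SE 0.25, adjusted p = 4.8e-07). Between beta and delta the log2 fold change was 0.46 (SE 0.21, adjusted p = 0.116), which did not pass. Without delta replicate 1 that difference passed, at 0.66 and adjusted p = 0.023, and over all 20 alternatives its adjusted p ran from 0.023 to 0.889. In alpha replicate 3 the effective length that RSEM estimated for Adora1 was 1694 bases, against 3773 to 4587 in the other libraries, so its TPM there, 1.02, stood above the 0.43 and 0.35 of the other alpha replicates although its CPM did not.

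Adora2a (ENSMUSG00000020178, chr10:75316877-75334784, plus strand) encodes the Gs-coupled adenosine receptor of high affinity. The beta replicates had 9, 8 and 5 counts, or 1.16, 1.37 and 0.83 CPM. The alpha replicates had 9.11, 6.93 and 6.77 CPM, and the delta replicates 7.10, 6.80 and 5.27 CPM. All beta libraries lay under all others, while the alpha and delta ranges overlapped. Adora2a was lower in beta than in alpha, with a log2 fold change of -2.75 (SE 0.39, adjusted p = 3.6e-05), and lower in beta than in delta, with -2.50 (SE 0.39, adjusted p = 9.07e-05). Between alpha and delta the log2 fold change was 0.25 (SE 0.33, adjusted p = 0.642), which did not pass. The effective length of Adora2a was 802 to 1335 bases in beta-enriched libraries, against 2072 to 2389 in alpha- and 2376 to 2403 in delta-enriched libraries. With these lengths as offsets the log2 fold changes in beta were -1.60 against alpha (adjusted p = 0.0134) and -1.28 against delta (adjusted p = 0.0386). Over the 20 alternatives the adjusted p against alpha ran from 1.5e-07 to 0.0228. With limma on log2(TPM + 1) and log2(TPM + 0.1) the difference from delta did not pass (adjusted p = 0.174 and 0.138). Over the 20 alternatives its adjusted p ran from 8.39e-07 to 0.174. In beta-enriched libraries Adora2a stood at 14.7% of its alpha level, and 7 alpha cell markers stood at 0.288% (Irx1) to 7.54% (Etv1) of theirs, with Gcg at 0.44%. Ppy and Pyy, the markers of PP cells, were likewise low in beta, at 2.06% and 2.48% of their alpha levels, and high in alpha and delta (Pyy averaged 30.9 CPM in beta, 1245 in alpha and 3395 in delta). The part of PP cells in the Adora2a levels was not tested.

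Adora2b (ENSMUSG00000018500, chr11:62248984-62266453, plus strand) encodes the Gs-coupled adenosine receptor known for its low affinity. It had 10.7, 10.97 and 11.6 CPM in the beta replicates, 0.57, 1.51 and 1.83 CPM in the alpha replicates, and 0.68, 0.76 and 1.41 CPM in the delta replicates. Every beta library lay above every other library, and alpha and delta overlapped. It was higher in beta by 3.09 against alpha (log2, SE 0.46, adjusted p = 5.41e-05) and by 3.50 against delta (SE 0.48, adjusted p = 1.85e-05), and both differences passed in all 20 alternatives. Between alpha and delta the log2 fold change was 0.42 (SE 0.52, adjusted p = 0.62). The 2 Gs-coupled receptor genes ran in opposite directions between beta and the other subsets: the ratio of Adora2a to Adora2b in TPM was 0.118 to 0.254 in beta-enriched, 2.52 to 11.2 in alpha-enriched and 2.57 to 7.2 in delta-enriched libraries.

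Adora3 (ENSMUSG00000000562, chr3:105870858-105908926, plus strand) encodes the Gi-coupled A3 receptor. It had 37, 18 and 17 counts in the beta replicates, 10, 0 and 5 counts in the alpha replicates, and 0 in every delta replicate. Beta was the high group without overlap, and alpha replicate 2 was at 0 like the delta libraries. The log2 fold change of beta over alpha was 2.49 (SE 0.86, adjusted p = 0.0437), and this call was lost in 9 of 19 alternatives (adjusted p 0.000784 to 0.217). It was lost without beta replicate 1 (adjusted p = 0.217), 2 (0.128) or 3 (0.111) and without alpha replicate 1 (0.0576), 2 (0.127) or 3 (0.127). Set against a floor of 3 counts over the delta subset, the mean of Adora3 in beta was at least 25.7-fold higher than in delta (adjusted p = 0.000739, below 0.05 in all 19 alternatives). This bound leaves out the spread of the beta libraries, with a mean of 3.55 CPM and a lowest library at 2.81 CPM. In alpha the mean of Adora3 was at least 4.45-fold higher than in delta (adjusted p = 0.0335), with overlapping ranges. The alpha bound was 2.55-fold without alpha replicate 1 and 6.68-fold without alpha replicate 2. The call was lost in 11 of 19 alternatives (adjusted p 0.00691 to 0.316); leaving out any single beta or delta library, or alpha replicate 1 or 3, was enough to lose it (adjusted p 0.0509 to 0.128). Tmigd3, a gene on the same strand, shares 779 exonic bases with Adora3, 20.9% of the Adora3 exonic bases, so reads of these 2 genes may have been divided by RSEM. Tmigd3 had the same order, at 9.66 ± 1.54 CPM in beta, 1.006 ± 0.71 in alpha and 0.22 ± 0.21 in delta (mean ± SD, n = 3 each).

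P2ry1 (ENSMUSG00000027765, chr3:61002795-61008982, plus strand) encodes a Gq-coupled receptor for ADP. It had 70.5, 55.5 and 64.0 CPM in the beta replicates, 11.1, 3.53 and 5.502 CPM in the alpha replicates, and 21.9, 42.9 and 34.6 CPM in the delta replicates. The order was beta, delta, alpha, with no overlap between any pair of subsets. P2ry1 was higher in beta than in alpha by 3.22 (log2, SE 0.37, adjusted p = 7.74e-05) and lower in alpha than in delta, with -2.29 (SE 0.37, adjusted p = 0.00107). The log2 fold change of beta over delta, 0.94 (SE 0.33), missed the threshold at adjusted p = 0.053. It passed in 7 of 20 alternatives, among them DESeq2 (adjusted p = 0.00692) and the fits without alpha replicate 1 (0.00323), alpha replicate 2 (0.01) or delta replicate 2 (0.0455), within a range of 2.08e-05 to 0.157. An antisense gene, Gm37035, shares 992 exonic bases with P2ry1 (23.1% of the P2ry1 exonic bases) and averaged 2.42 CPM in beta, 0 in alpha and 1.73 in delta. The library protocol keeps strand, but no source used here states the strand setting of the counting, so reads of P2ry1 and its antisense partner may be mixed.

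P2ry6 (ENSMUSG00000048779, chr7:100937630-100974649, minus strand) encodes the Gq-coupled UDP receptor. It had 31.1, 32.2 and 34.2 CPM in the beta replicates, 2.51, 1.51 and 1.98 CPM in the alpha replicates, and 4.10, 4.54 and 4.63 CPM in the delta replicates. No ranges overlapped, and the 3 libraries of a subset lay close together. Its log2 fold change of beta over alpha, 4.0 (SE 0.25, adjusted p = 2.04e-09), was the largest of the tested receptor genes in that comparison. Against delta it was 2.87 (SE 0.23, adjusted p = 4.26e-08), and both of these calls were kept in all 20 alternatives. P2ry6 was lower in alpha than in delta, with -1.13 (SE 0.27, adjusted p = 0.00513), a call lost with effective length offsets at -0.80 (adjusted p = 0.115) and on the TPM scales (adjusted p 0.434 and 0.579). P2ry1 and P2ry6 differed in how delta stood to beta: the ratio of P2ry6 to P2ry1 in TPM was 0.937 to 1.35 in beta-enriched, 0.664 to 0.84 in alpha-enriched and 0.213 to 0.316 in delta-enriched libraries, with no overlap.

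P2ry2 (ENSMUSG00000032860, chr7:100996568-101012866, minus strand), which encodes the Gq-coupled receptor for ATP and UTP, had 1, 2 and 0 counts in the beta replicates, 0, 0 and 1 in the alpha replicates and 0, 0 and 11 in the delta replicates. Its 11 counts in delta replicate 3 stood in the library with the most acinar transcripts, and the part of acinar cells in that count was not tested. A floor of 3 counts over a subset corresponds to 0.152 CPM in beta, 0.126 in alpha and 0.138 in delta. P2ry2 did not pass the filter on low counts, and all its delta counts stood in delta replicate 3. Its differences between the subsets were therefore not tested in the main fit.

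**Figure D2:**
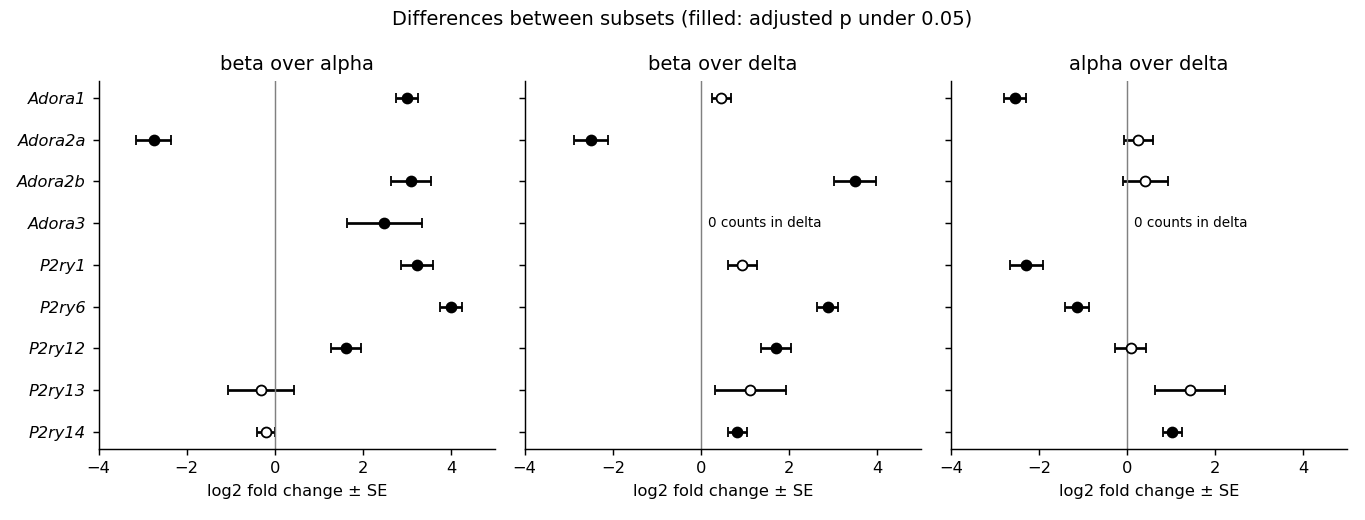
Log2 fold changes (x axis) with their approximate standard errors for the 9 tested receptor genes (rows) in the 3 comparisons. Filled points passed at adjusted p under 0.05. P2ry6 stands farthest to the right between beta and alpha (4.0) and Adora2a alone to the left, at -2.75, among the filled points; Adora3 is not drawn where delta had 0 counts.

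P2ry12 (ENSMUSG00000036353, chr3:59216272-59262871, minus strand) encodes the Gi-coupled ADP receptor known from platelets and microglia, the receptor blocked by clopidogrel. It had 11.7, 9.60 and 9.74 CPM in the beta replicates, 3.53, 3.27 and 3.25 CPM in the alpha replicates, and 2.60, 4.39 and 2.57 CPM in the delta replicates. All beta libraries were above all others, and delta spanned the alpha range. It was higher in beta by 1.62 against alpha (log2, SE 0.34, adjusted p = 0.00143) and by 1.70 against delta (SE 0.34, adjusted p = 0.000884). Against alpha the call was lost on the log2(TPM + 0.1) scale (adjusted p = 0.0619, within a range of 0.000308 to 0.0619 over 20 alternatives). Between alpha and delta the log2 fold change was 0.08 (SE 0.35, adjusted p = 0.901), with a sign that changed in 5 alternatives.

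P2ry13 (ENSMUSG00000036362, chr3:59207892-59210882, minus strand), another Gi-coupled ADP receptor, had 2.70, 1.71 and 2.81 CPM in the beta replicates, 1.14, 3.40 and 4.52 CPM in the alpha replicates, and 0, 1.36 and 1.93 CPM in the delta replicates. The 3 ranges overlapped, and no comparison passed. The log2 fold changes were -0.31 for beta over alpha (SE 0.76, adjusted p = 0.823), 1.12 for beta over delta (SE 0.81, adjusted p = 0.328) and 1.43 for alpha over delta (SE 0.80, adjusted p = 0.22). With 0 to 32 counts per library the standard errors were among the largest of the tested genes.

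P2ry14 (ENSMUSG00000036381, chr3:59113855-59153618, minus strand) encodes the Gi-coupled receptor for UDP-glucose. It had 30.4, 25.0 and 29.2 CPM in the beta replicates, 27.0, 32.6 and 38.0 CPM in the alpha replicates, and 11.6, 14.97 and 21.1 CPM in the delta replicates. Delta was the low group without overlap, and beta and alpha overlapped. P2ry14 was higher than in delta by 0.83 in beta (log2, SE 0.21, adjusted p = 0.00588) and by 1.03 in alpha (SE 0.21, adjusted p = 0.00136). The log2 fold change of beta over alpha was -0.20 (SE 0.20, adjusted p = 0.542). With effective length offsets neither call against delta was kept (adjusted p = 0.0743 for beta and 0.0642 for alpha), nor on the TPM scales. With library totals alone the beta call was lost too, at 0.46 and adjusted p = 0.226; over 20 alternatives the adjusted p ran from 2e-04 to 0.226 for beta and from 1.41e-06 to 0.112 for alpha.

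P2ry12, P2ry13 and P2ry14 lie inside Med12l on the opposite strand, and P2ry12 shares 9 exonic bases with it while the other two share 0. Med12l, a Mediator kinase module gene, averaged 107.7 ± 18.6 CPM in beta, 99.9 ± 7.2 in alpha and 63.8 ± 4.0 in delta (mean ± SD, n = 3 each). Like P2ry14, it was higher than in delta by 0.76 in beta (log2, SE 0.12, adjusted p = 0.000141) and by 0.65 in alpha (SE 0.12, adjusted p = 0.000844), and it did not pass between beta and alpha (0.11, SE 0.12, adjusted p = 0.59). Whether reads from Med12l entered the counts of these receptor genes was not tested. The neighbouring P2Y-like gene Gpr171 had 7.94 CPM in beta, 10.1 in alpha and 6.33 in delta, and it did not pass in any comparison.

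Leukocytes and platelets are known to express P2ry12, P2ry13, P2ry14 and Adora3, so their markers were set beside these genes. The 14 leukocyte markers summed to 5.91 to 9.74 CPM in beta-enriched, 6.30 to 7.34 in alpha-enriched and 6.83 to 13.2 in delta-enriched libraries. Of these markers 5, Ptprc, Adgre1, Tyrobp, Cd3e and C1qb, had 0 counts in all 9 libraries, and C1qa gave 356 counts over all libraries, the most of any. The 5 platelet markers summed to 1.89 to 2.05 CPM in beta-enriched, 0.28 to 1.89 in alpha-enriched and 0 to 0.64 in delta-enriched libraries. Pf4 and Ppbp were at 0 in all 9, while Gp1bb had 36, Itga2b 29 and Gp9 2 counts over all libraries. The part of these cells in the receptor gene levels was not tested.

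Beta cell transcripts were also present at a low level in the other subsets, and the receptor genes can be read beside them. In alpha-enriched libraries Ins1 stood at 8.25% of its beta level, Ucn3 at 4.11% and Nkx6-1 at 18.7%, the lowest and highest of 7 beta cell markers being those of Ucn3 and Nkx6-1. The second highest marker was Ins2, at 8.96%. On the same measure P2ry6 stood at 6.15%, P2ry1 at 10.6%, Adora2b at 11.8%, Adora1 at 12.3% and Adora3 at 17.3%. Of these only P2ry6 lay among the bulk of the markers, and the others were above every marker but Nkx6-1. P2ry12, at 32.4%, was above every marker. The part of carried-over beta cell RNA in these alpha levels was not tested. In delta-enriched libraries Ins2 stood at 0.737% of its beta level and Glp1r, the highest of the 7 markers, at 13.7%. The next highest was Nkx6-1, at 6.1%. P2ry6 at 13.6% and Adora2b at 8.6% were thus above every marker but Glp1r. P2ry12 at 30.8%, P2ry1 at 52.3% and Adora1 at 72.8% were above every marker. Adora3, at 0% in delta, was below every marker. The part of carried-over beta cell RNA in these delta levels was not tested.

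**Figure D3:**
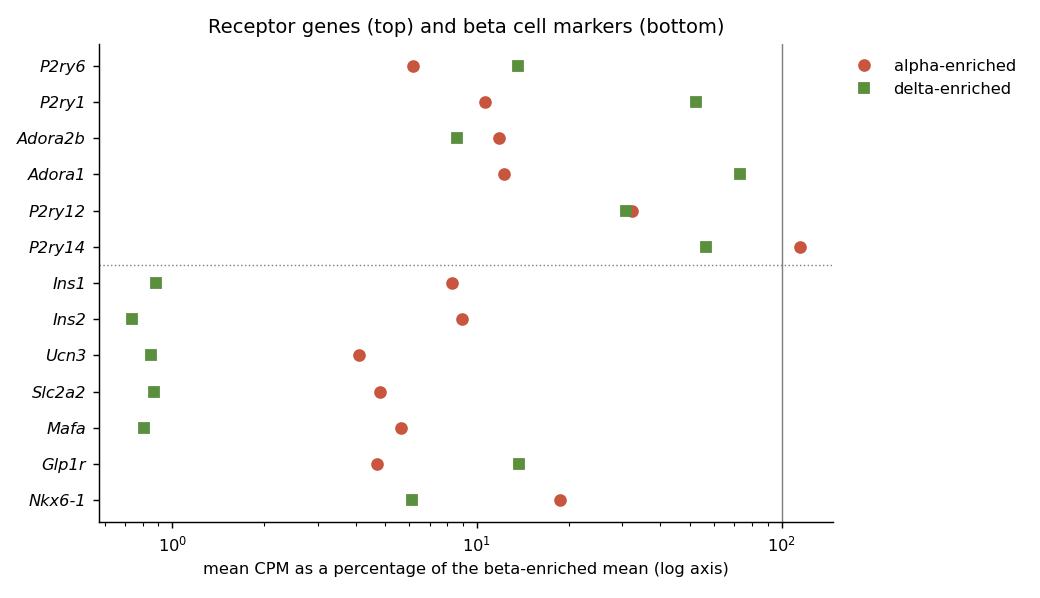
Mean CPM in alpha-enriched (circles) and delta-enriched (squares) libraries as a percentage of the beta-enriched mean (x axis, log scale) for 6 receptor genes (top) and 7 beta cell markers (bottom); the vertical line marks 100%. P2ry1 and Adora1 reach 52.3% and 72.8% in delta, where the markers lie at 0.737% to 13.7%. Adora3, at 0% in delta, is not drawn.

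Levels of different genes can be compared only per length, for which the deposited TPM values were used. In beta-enriched libraries P2ry6 (11.9 ± 3.4 TPM, mean ± SD, n = 3) and P2ry1 (10.3 ± 3.0) came first, with overlapping ranges, and lay above all other receptor genes. P2ry14 (3.53 ± 0.74), Adora2b (3.47 ± 0.91), Adora1 (2.92 ± 0.63) and P2ry12 (2.57 ± 0.58) followed, each overlapping the next. In alpha-enriched libraries P2ry14 (4.08 ± 2.21 TPM) was first and Adora2a (1.75 ± 0.12) was next, with no overlap between them or with the third, P2ry1 (1.08 ± 0.52). Each of the remaining genes overlapped its neighbour in the alpha order. In delta-enriched libraries P2ry1 (4.70 ± 1.75 TPM) had the highest mean. It lay above P2ry14 (1.85 ± 1.10) within each library, although their ranges overlapped. Adora1 (1.75 ± 0.09) and Adora2a (1.19 ± 0.16) came next by mean. Adora1 stood above P2ry14 in delta replicates 1 (1.77 against 1.03 TPM) and 2 (1.82 against 1.42). In delta replicate 3 P2ry14 was higher, at 3.1 against 1.65.

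The summed TPM of the 10 genes was 28.8 to 46.7 in beta-enriched, 8.07 to 15.1 in alpha-enriched and 8.06 to 15.2 in delta-enriched libraries. Gq-coupled receptor genes made up 58.5% to 61.6% of that sum in beta-enriched, 11.4% to 28.4% in alpha-enriched and 43.9% to 53.5% in delta-enriched libraries, with no overlap. Gi-coupled receptor genes made up 27.6% to 31.4% in beta-enriched, 49.7% to 68.5% in alpha-enriched and 34.6% to 42.4% in delta-enriched libraries, also with no overlap. Within the Gi-coupled genes P2ry14 alone held 8.93% to 10.3% of the sum in beta-enriched, 27.3% to 43.8% in alpha-enriched and 10.6% to 20.4% in delta-enriched libraries. The 2 Gs-coupled genes held 9.95% to 12.0% in beta-enriched, 17.1% to 25.4% in alpha-enriched and 10.3% to 15.3% in delta-enriched libraries, so that beta and delta overlapped there. These shares are descriptions of transcripts and not of receptor protein. The deposited TPM values were not rescaled between libraries. Beta replicate 2, where a ribosomal RNA locus took 34.42% of the counts, had the lowest summed TPM of the beta-enriched libraries (28.8). The part of that locus in the summed TPM was not tested.

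**Figure D4:**
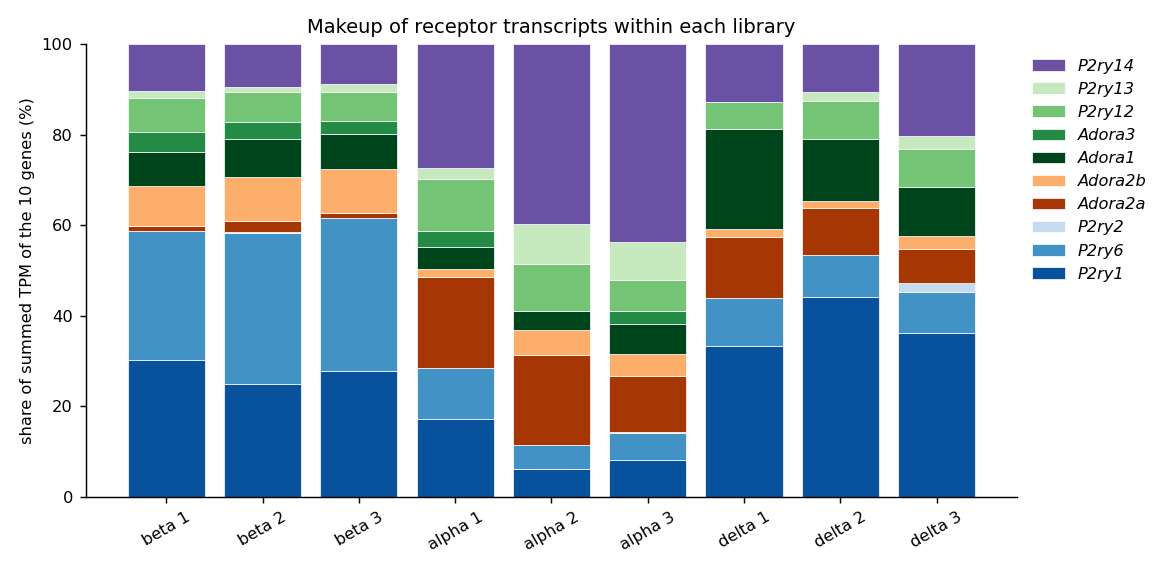
Share of each receptor gene in the summed TPM of the 10 genes (y axis, percent) in each of the 9 libraries (x axis); colours are genes, with blue for Gq-coupled, orange for Gs-coupled, and green and purple for Gi-coupled receptors. Blue takes 58.5% to 61.6% of the beta bars, and P2ry14 (purple) takes 27.3% to 43.8% of the alpha bars.

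For each tested receptor gene the 3 protein-coding genes with the most similar profile were taken from 12480 candidates, by the root mean square difference of mean-centred log2 CPM over the 9 libraries. For P2ry6 these were Itpkb (0.12), Col6a6 (0.23) and Glp1r (0.27), for P2ry12 Hepacam2 (0.17), Osbpl5 (0.18) and Degs1 (0.20), and for P2ry14 Serpina10 (0.18), Trub1 (0.18) and Tmem161b (0.18). Itpkb encodes an inositol trisphosphate kinase and Glp1r the receptor for glucagon-like peptide 1. Adora2a was closest to Pde4d (0.23), which encodes a cAMP phosphodiesterase, to Ankrd6 (0.24) and to the transcription factor gene Gata6 (0.25). Adora1 was closest to Hadh (0.26), Vldlr (0.29) and Jakmip1 (0.30), and P2ry1 to Agxt2 (0.32), Mapt (0.34) and Enho (0.35). Adora2b was closest to Ovol2 (0.30), Egfr (0.37) and Car15 (0.38). For the low genes Adora3 and P2ry13 the closest genes were Asb11 (0.38) and Ccdc96 (0.45), followed by Igsf11 (0.49) and Aldh1l2 (0.55) for Adora3 and by Prrt3 (0.45) and Fancb (0.46) for P2ry13. Hadh averaged 302.2 CPM in beta, 28.9 in alpha and 164.9 in delta. Adora1 had the same order, which follows from choosing Hadh by its likeness in these libraries.

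The rest of the nucleotide and adenosine pathway was read from 6 gene lists, beside a median log2 fold change over all tested genes of -0.02 for beta over alpha, -0.02 for beta over delta and -0.01 for alpha over delta. In the same order, 26.6%, 30.6% and 24.3% of all tested genes were called, and the counts in these short lists are descriptions. Of 8 other P2Y and P2Y-like receptor genes 3 were tested and none passed in any comparison at adjusted p under 0.05; at an unadjusted p under 0.05 only Gpr171 did, between alpha and delta. Their median log2 fold changes were -0.35 for beta over alpha, 0.33 for beta over delta and 0.68 for alpha over delta. Of 7 P2X channel genes 2 were tested, with medians of 0.04, 0.08 and 0.04 in the same order, and P2rx4 passed. P2rx4, an ATP-gated cation channel gene, averaged 47.3 ± 1.1 CPM in beta, 46.7 ± 4.8 in alpha and 29.6 ± 4.3 in delta (mean ± SD, n = 3 each) and was higher than in delta by 0.67 in beta (log2, SE 0.14, adjusted p = 0.00145) and by 0.66 in alpha (SE 0.14, adjusted p = 0.00237). With library totals alone neither P2rx4 call was kept (adjusted p = 0.421 and 0.191).

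Among 12 genes of nucleotide loading and release 9 were tested. Between beta and alpha 3 were higher in beta, 4 were lower and 2 did not pass (median log2 fold change -0.12). Between beta and delta 1 was higher and 3 were lower in beta (median -0.52), and between alpha and delta 1 was higher and 4 were lower in alpha (median -0.16). The shares called over all tested genes were 26.6%, 30.6% and 24.3% in these 3 comparisons. Lrrc8b, a subunit of the volume-regulated anion channel, averaged 13.6 ± 2.9 CPM in beta, 34.4 ± 3.7 in alpha and 124.2 ± 5.0 in delta. It was lower in beta than in alpha (a log2 fold change of -1.34 with SE 0.15 and adjusted p = 2.75e-06) and below delta (-3.20, SE 0.15, adjusted p = 5.36e-11), and lower in alpha than in delta (-1.85, SE 0.14, adjusted p = 2.36e-08). The subunit Lrrc8d averaged 146.4 CPM in beta, 85.8 in alpha and 123.6 in delta, with log2 fold changes of 0.77 for beta over alpha (adjusted p = 1.55e-05) and -0.53 for alpha over delta (adjusted p = 0.000869), of which the beta call was lost with library totals alone (0.56, adjusted p = 0.0798). Lrrc8c was nearly absent in beta, at 0.06 CPM, against 4.26 in alpha and 2.86 in delta (adjusted p = 0.000134 and 0.000378 for beta against each). The scramblase gene Ano6 averaged 94.0 CPM in beta, 70.6 in alpha and 145.4 in delta and passed in all 3 comparisons (adjusted p = 0.00869, 0.000213 and 1.24e-06). With library totals alone the difference of Ano6 between beta and alpha did not pass, at 0.19 in place of 0.41 on the log2 scale (adjusted p = 0.647). Panx1, the pannexin channel gene, was lower in alpha than in delta, at 3.35 against 7.96 CPM (log2 fold change of -1.25 with SE 0.40 and adjusted p = 0.0309). Lrrc8a was higher in beta than in delta by 0.52 (SE 0.19, adjusted p = 0.0435), a call lost with upper-quartile factors (0.46, adjusted p = 0.0746) and with library totals alone (0.13, adjusted p = 0.778).

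Of 10 genes for ectonucleotidases and related surface phosphatases 6 were tested, with 2 higher and 2 lower in beta than in alpha (median log2 fold change 0.76), 1 higher and 1 lower in beta than in delta (0.08) and 1 higher and 3 lower in alpha than in delta (-0.19). Over all tested genes 26.6%, 30.6% and 24.3% were called in that order. Entpd3, which encodes an enzyme that removes phosphates from extracellular nucleoside tri- and diphosphates, averaged 123 ± 6.8 CPM in beta, 34.1 ± 1.3 in alpha and 58.7 ± 1.1 in delta. It was higher in beta by 1.85 against alpha (log2, SE 0.11, adjusted p = 6.82e-10) and by 1.07 against delta (SE 0.10, adjusted p = 3.93e-07), and lower in alpha than in delta (-0.79, SE 0.11, adjusted p = 2.6e-05). Nt5e, the gene of the surface enzyme that makes adenosine from AMP, averaged 1.95 CPM in alpha and 5.51 in delta (log2 fold change of -1.50 with SE 0.51 and adjusted p = 0.0395). Enpp1 had a mean of 0.29 CPM in beta, 3.85 in alpha and 2.90 in delta, with adjusted p = 0.00443 for beta against alpha and 0.00953 for beta against delta. Alpl, the gene of a surface alkaline phosphatase, averaged 0.23 CPM in beta, 2.25 in alpha and 0.22 in delta (adjusted p = 0.0207 for beta against alpha and 0.0227 for alpha against delta). Enpp2, counted in this list by family, encodes autotaxin, which makes lysophosphatidic acid, and averaged 166.6 CPM in beta, 59.5 in alpha and 139 in delta (adjusted p = 2.15e-08 for beta against alpha and 2.91e-07 for alpha against delta).

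Of 13 genes of adenosine transport and metabolism 9 were tested, with 3 higher and 2 lower in beta than in alpha (median log2 fold change 0.10), 1 higher and 2 lower in beta than in delta (0.29) and 1 higher and 3 lower in alpha than in delta (-0.56). The shares called over all tested genes were 26.6%, 30.6% and 24.3% in that order. The median between beta and alpha counts Slc28a3, at 0 in both, as no difference, and the other medians are the same with Slc28a3 at its floor of 3 counts, since it is the lowest of the list either way. Slc28a3, a concentrative nucleoside transporter gene, had 0 counts in all beta- and alpha-enriched libraries and 7.93 ± 1.96 CPM in delta (adjusted p = 1.66e-05 for beta and 1.56e-05 for alpha against delta). The related Slc28a2 averaged 3.55 CPM in beta, 0.47 in alpha and 1.52 in delta, and passed between beta and alpha (log2 fold change of 2.88 with SE 0.94 and adjusted p = 0.0306). Slc29a4, which encodes a transporter of monoamines and adenosine, averaged 17.3 CPM in beta, 33.1 in alpha and 75.7 in delta and was lower in the first-named subset in all 3 comparisons (log2 fold changes -0.94, -2.13 and -1.20, adjusted p = 0.000141, 7.92e-09 and 6.24e-06). Slc29a1, the equilibrative nucleoside transporter gene, averaged 43.1 CPM in beta, 29.4 in alpha and 60.0 in delta, with a log2 fold change of -1.03 for alpha over delta (SE 0.19, adjusted p = 0.000542) and 0.55 for beta over alpha (SE 0.19, adjusted p = 0.0391). That beta call was lost with upper-quartile factors (adjusted p = 0.0836) and with library totals alone (0.478). Slc29a3 was higher in beta than in alpha by 0.85 (adjusted p = 0.011) and Nt5c2 was higher in beta than in delta by 0.43 (log2 scale, adjusted p = 0.0042); with library totals alone neither passed (adjusted p = 0.245 and 0.872). Adk, the gene of adenosine kinase, which returns adenosine to AMP, averaged 92.7 ± 5.2 CPM in alpha and 51.2 ± 15.1 in delta (log2 fold change of 0.85 with SE 0.16 and adjusted p = 0.000622).

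The G protein alpha subunit genes, the partners of these receptors inside the cell, were tested for 12 of 13 genes. Against alpha 3 were higher and 4 lower in beta (median log2 fold change 0.20), against delta 2 were higher and 2 lower in beta (-0.04), and 2 were higher and 3 lower in alpha than in delta (-0.01). Over all tested genes 26.6%, 30.6% and 24.3% were called in that order. Gnas, the gene of the Gs alpha subunit, averaged 471.5 ± 24.1 CPM in beta, 3002 ± 160 in alpha and 1568 ± 34 in delta. It was lower in beta than in alpha (a log2 fold change of -2.67 with SE 0.09 and adjusted p = 6.6e-13) and below delta (-1.73, SE 0.08, adjusted p = 5.36e-11), and higher in alpha than in delta by 0.94 (SE 0.08, adjusted p = 1.35e-07). Counts were by gene, so the different transcripts of Gnas were not told apart. Of the Gi alpha genes, Gnai1 was lower in beta than in alpha (25.3 against 162.5 CPM, log2 fold change of -2.68 with SE 0.24 and adjusted p = 2.72e-06) and averaged 16.7 CPM in delta. Gnai2 averaged 277.5 CPM in beta, 126.6 in alpha and 174.5 in delta, and Gnai3 145.6, 80.2 and 65.9 CPM in that order. Both were higher in beta than in alpha, by 1.13 and 0.86 on the log2 scale (adjusted p = 3.51e-08 and 0.000206), and than in delta, by 0.67 and 1.14 (adjusted p = 1.51e-05 and 1.02e-05); with library totals alone the Gnai2 difference from delta did not pass (adjusted p = 0.34). Gnao1 was lower in beta than in delta (log2 fold change of -0.36 with SE 0.09 and adjusted p = 0.00441), and Gnaz was lower in alpha than in delta (-0.64, SE 0.13, adjusted p = 0.00135).

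**Figure D5:**
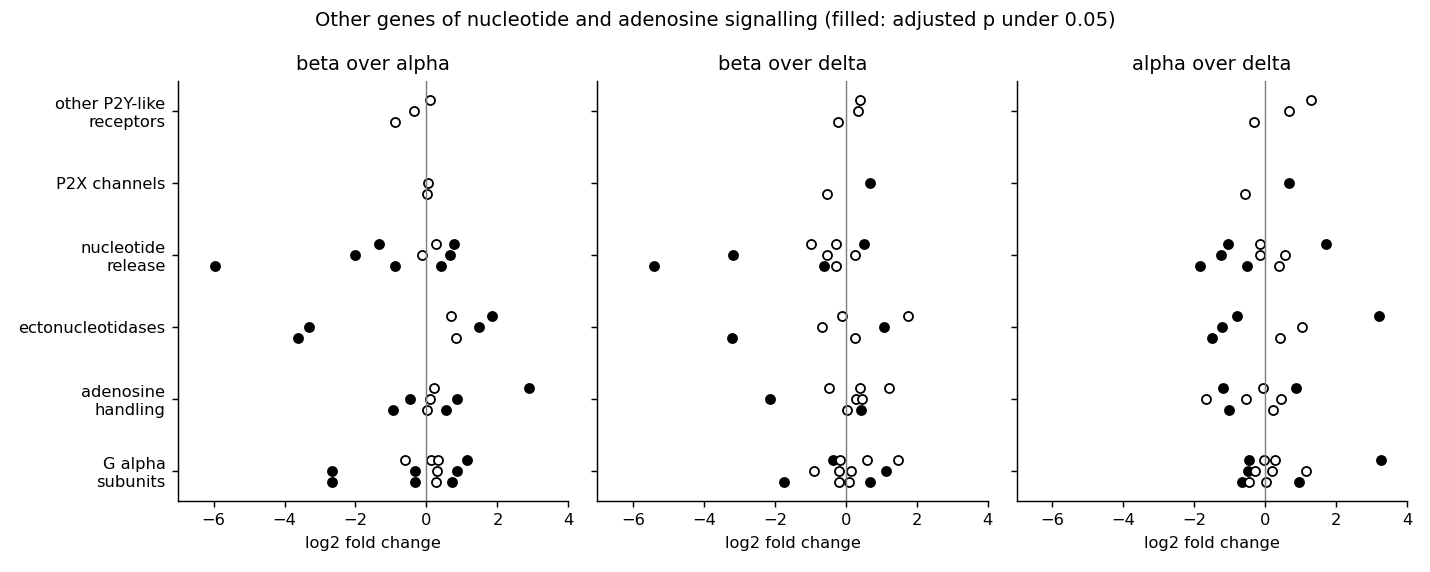
Log2 fold changes (x axis) of the tested genes of 6 pathway lists (rows) in the 3 comparisons, without genes at 0 in either subset; filled points passed at adjusted p under 0.05 and the vertical spread within a row only separates points. No P2Y-like gene is filled, and the leftmost point between beta and alpha is Lrrc8c, which had 0.06 CPM in beta.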

How the data were processed

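RNA of 9 libraries of sorted islet cells was analysed, 3 per subset. Per the labels' protocols, libraries were strand-specific, randomly primed and depleted of ribosomal RNA. The tools were RSEM, STAR 2.5.2b, DESeq2 1.22.1 and R 3.5.1 on build GRCm38.p6, per the submitters' processing notes. The RSEM version and strand setting are not given in the sources used here. For each library the authors deposited an RSEM table by gene with expected counts, TPM and effective lengths in bases, per the file headers. Expected counts were rounded to whole numbers (8 of 90 values of the receptor genes were not whole within 0.001). The deposited TPM values served for levels between genes.

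Genes kept by filterByExpr (15896) were scaled by TMM and fitted with edgeR 4.0.16 (R 4.3.3; robust quasi-likelihood, all 9 libraries, 1 coefficient per subset). The 3 differences were tested 2-sided with Benjamini-Hochberg adjustment over all tested genes. Adjusted p-values come from edgeR where no other tool is given. Every subset has 3 libraries, and a value with ± is a mean and SD over them. SE is an approximate standard error of the fitted log2 difference. It is the size of that difference divided by the square root of its quasi-likelihood F statistic. Floors of 3 counts cover counting error only. Depth limits precision most for genes with few counts.

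The receptor genes and gene lists were chosen with earlier results of these data known. Named were all receptor genes, up to 4 genes per list and comparison past the test with the smallest p, genes overlapping or next to a receptor gene, and the 3 most similar genes of each. A gene that this rule took is not reported here. Of 142 list genes 141 were matched. Alternatives were 3 other scalings, 2 other filters, DESeq2 1.42.0, effective length offsets, limma 3.58.1 on log2(TPM + 1) and log2(TPM + 0.1), a replicate block, and libraries left out.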

Additional observations from a re-analysis of the deposited data

How the results depend on the processing

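The numbers of receptor genes called were 7 between beta and alpha, 6 between beta and delta and 5 between alpha and delta. They ranged over 6 to 7, 6 to 7 and 4 to 5 when 1 library was left out. Between alpha and delta the count was 3 with effective length offsets, 2 with limma on log2(TPM + 1) and 2 with limma on log2(TPM + 0.1), where 18.2%, 11.4% and 11.2% of all tested genes were called in place of 24.3%; the cause was not tested. Between beta and delta it was 4, with 0 lower in beta, on log2(TPM + 0.1), where 15.6% of all tested genes were called in place of 30.6%. The log2(TPM + 1) scale understates the fold changes of low genes. Over all single genes and settings, 490 results kept direction and side of the threshold, 33 lost a call, 8 gained a call and 6 changed sign. The sign changes were in differences that had not passed. P2ry12 between alpha and delta was -0.082 with library totals alone, -0.16 with effective length offsets and -0.051 without beta replicate 2 and delta replicate 3 together, and ran from -0.048 to 0.38 when 1 library was left out. P2ry13 between beta and alpha ran from -0.71 to 0.092 when 1 library was left out. Library totals alone moved the median log2 fold change of all genes by -0.23, -0.39 and -0.16 in the 3 comparisons, and the TPM scales moved it by up to 0.25, so calls under these settings are to be read against those shifts. Of 47 named list results, 47 passed with DESeq2 size factors, 45 with upper-quartile factors and 38 with library totals alone, and none changed sign. Replicate numbers were not taken to pair the libraries, since the 9 correlations of same-numbered deviations were low. They ran from 0.00085 to 0.112, and only the highest was above 0.1. All 9 were positive, whereas 15 of 18 between different numbers were negative (-0.102 to 0.021). Deviations were taken from each subset's own mean, so positive values for the same numbers make the others negative on balance. The negative values are therefore not separate evidence. Each library correlated best with its own number between beta and alpha and between alpha and delta, but not between beta and delta. This is a hint from the data of a weak pairing, which the labels do not state. The sample titles number the alpha-, beta- and delta-enriched libraries of each replicate consecutively, without saying that they were handled together. With the replicate number as a block the counts were 7, 6 and 5. P2ry2, with 11 counts at most, did not pass the filter on low counts and was not compared in the main fit.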
